A study of Mus musculus with 10 samples.

Results

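Lesional and uninvolved skin of IL-17C+ mice were compared library by library, with the lesional and the uninvolved biopsy of each animal treated as a pair. The libraries labelled IL-17C+ were 6 of the 10 in the series and came from 3 of its 5 mice, numbered 2275, 2296 and 2237. The other 4 libraries came from 2 mice labelled IL-17C+KO, where the series title names IL-6 as the knocked-out gene, and they entered the same fit with a lesional effect of their own. All mice were of the C57Bl/6 strain, all carried the IL-17C allele, the labels name no agent other than the anaesthetic used at death, and they were killed at 10 or 14 weeks of age. The labels name neither the age of each mouse nor the promoter that drives the IL-17C allele. Each library was made from the RNA of a full-thickness piece of dorsal skin, so every value below mixes epidermis, dermis, fat, muscle, hair follicles and infiltrating cells.

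IL-17C is a cytokine made mainly by epithelial cells, and it acts on keratinocytes through the receptor formed by IL-17RA and IL-17RE. In psoriasis, cytokines of the IL-17 family drive keratinocytes to release chemokines that draw in neutrophils, to make antimicrobial proteins and to switch from the ordinary keratins of the upper epidermis to wound keratins. Skin repair adds a further programme, in which fibroblasts lay down fibronectin, tenascin and collagens and proteases remodel them.

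The abundance of a gene is given as CPM, counts scaled to a common library size after TMM scaling, and a difference as a log2 value, in which 1 unit is a doubling. Per-sample values are always in the order of mice 2275, 2296 and 2237. The 6 libraries held 21056850 to 31072491 counts and at least 1 count for 17790 to 18431 of 24358 genes. Keratins of the interfollicular epidermis were abundant in every library, as the label skin requires, with Krt14 at 2254 to 7828 CPM and Krt10 at 2933 to 11183 CPM. Il6 had counts of 4, 6 and 9 in uninvolved and 18, 69 and 26 in lesional IL-17C+ skin but 55 to 315 in the 4 libraries labelled IL-17C+KO, so its counts go against that label, and these are called the libraries labelled IL-17C+KO throughout.

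Several libraries stood apart in ways that touch the comparison. Uninvolved skin of mouse 2275 held little RNA of growing hair follicles. The 28 genes listed for growing follicles summed to 196 CPM there, against 3125 and 14782 CPM in the other uninvolved samples. In lesional skin they summed to 12377, 1788 and 10324 CPM. Krt71, an inner root sheath keratin, was at 3.94 CPM in that sample and at 360 to 4120 CPM in the other 5. Skeletal muscle genes also varied, with the 31 members summing to 50827, 18919 and 9316 CPM in uninvolved and 5946, 4357 and 9990 CPM in lesional skin. Uninvolved skin of mouse 2237 had relatively more counts in short transcripts and fewer in long ones, and lesional skin of mouse 2296 leaned the same way. For genes of at most 1937 bases the median deviation of the uninvolved 2237 library from the mean of the 6 libraries was 0.46 log2 units, and for genes of at least 5280 bases it was -0.50, while lesional 2296 went from 0.15 to -0.26. The same 2 libraries had the highest shares of ribosomal Rn45s, 2.00% and 2.25% of counts, against 1.14% to 1.29% in the other 4. The part of transcript length, growing hair follicles and muscle content in the differences below was not tested beyond the values given beside them.

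**Figure D1:**
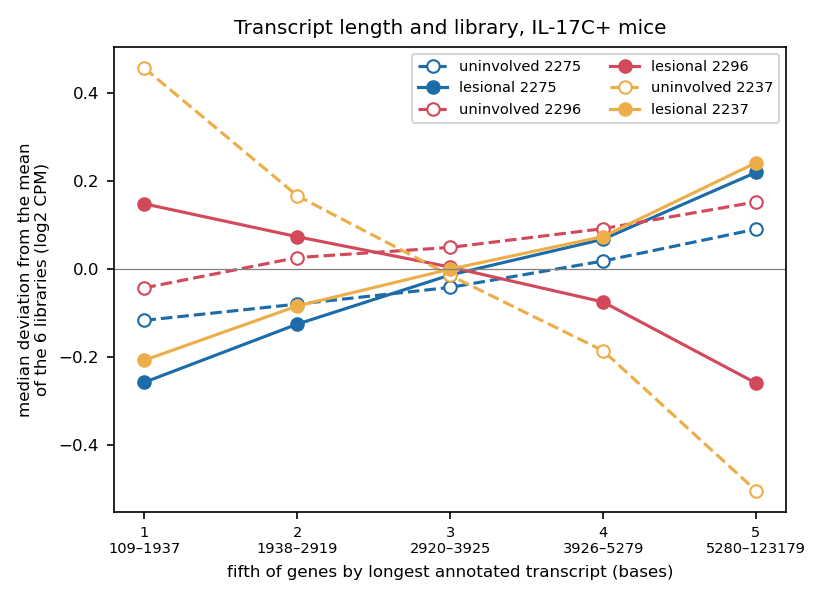
Median deviation of each IL-17C+ library (log2 CPM) from the mean of the 6 libraries, in 5 groups of genes ordered by their longest annotated transcript in bases; dashed lines with open points are uninvolved skin, solid lines with filled points lesional skin. The uninvolved library of mouse 2237 runs from 0.46 to -0.50, and the lesional library of mouse 2296 from 0.15 to -0.26.

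At a false discovery rate of 0.05, none of 16083 genes tested differed between lesional and uninvolved skin of IL-17C+ mice by edgeR's quasi-likelihood test (percent called 0), and the smallest adjusted p was 0.12. An unadjusted p under 0.05 was reached by 1031 genes, or 6.41% of those tested, of which 569 (3.54%) were higher and 462 (2.87%) lower in lesions. Limma-voom also called 0 genes at that false discovery rate, and DESeq2's Wald test with the same design called 247. The descriptions below therefore give fitted differences with their standard errors, unadjusted p-values and the values of the 3 mice. Without mouse 2275 the count at an unadjusted p under 0.05 was 424, and without mouse 2237 it was 1636. All 3 lesional values lay above all 3 uninvolved values for 1058 genes (6.58%) and below them for 1316 (8.18%). The same shares of all genes apply to the counts of list members below. A difference of at least 1 log2 unit in the same direction in each of the 3 mice was seen for 146 genes higher (0.908%) and 102 genes lower (0.634%). The median difference over all genes tested was -0.02 log2 units.

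Named first are the 12 genes with the smallest p in each direction among those that held 2 CPM on average, moved by at least 0.5 log2 units the same way in all 3 mice and had groups that did not overlap. All 24 differed by at least 1 log2 unit in each mouse. Higher in lesions were Cxcl5, Cxcl3, Osm, Fn1, Klk14, Pla1a, P4ha3, Cdhr1, Prl2c2, Cotl1, Cyp7b1 and Pcsk5, and among the lower were Csrp3, Ankrd2, Myoz2, Lmcd1, Casp4, Orm2, Orm1, Hoxa10, Dapl1, Hoxa9 and Etnppl. Their adjusted p-values from edgeR ran from 0.12 to 0.62. The higher genes include neutrophil chemokines, a cytokine, matrix proteins and an epidermal protease, and the lower genes include muscle proteins, acute phase proteins and homeobox genes.

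**Figure D2:**
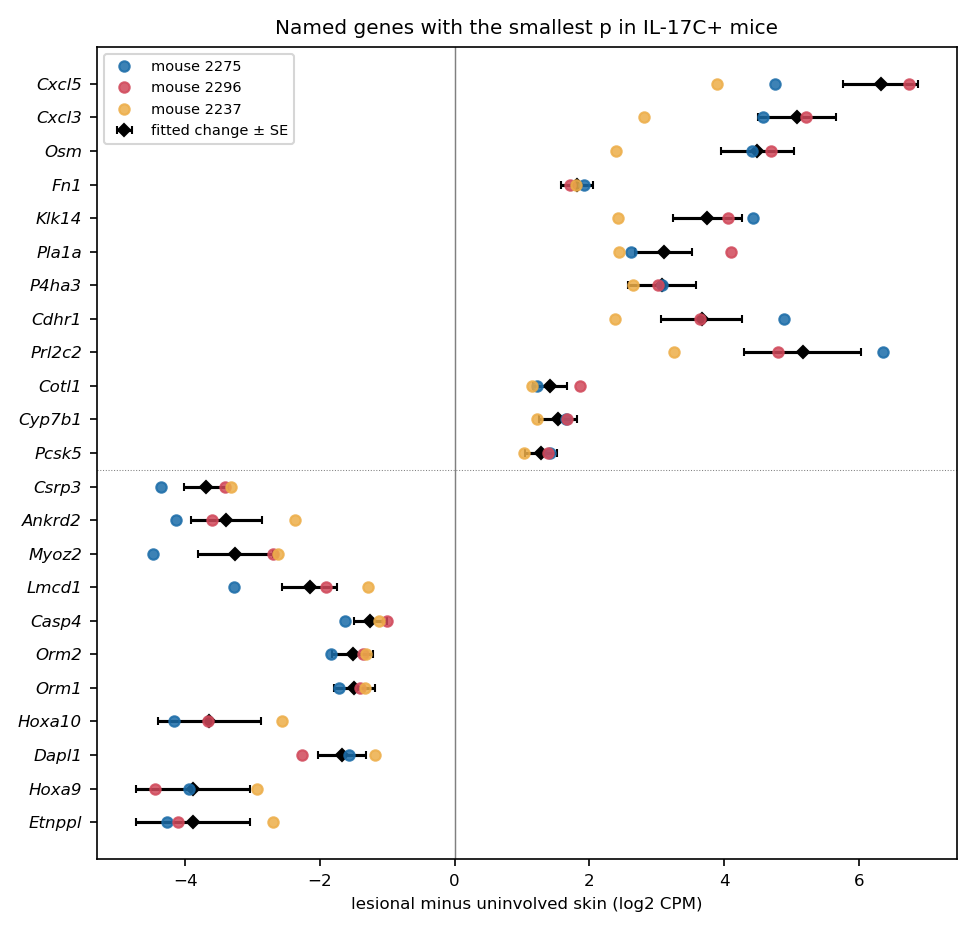
Lesional minus uninvolved difference (log2 CPM) of the higher and lower genes named above; coloured points are the 3 mice and black diamonds the fitted change with its standard error. Fn1 has nearly the same difference in the 3 mice (1.91, 1.72 and 1.80), whereas Cxcl5 ranges from 3.89 in mouse 2237 to 6.75 in mouse 2296.

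**Figure D3:**
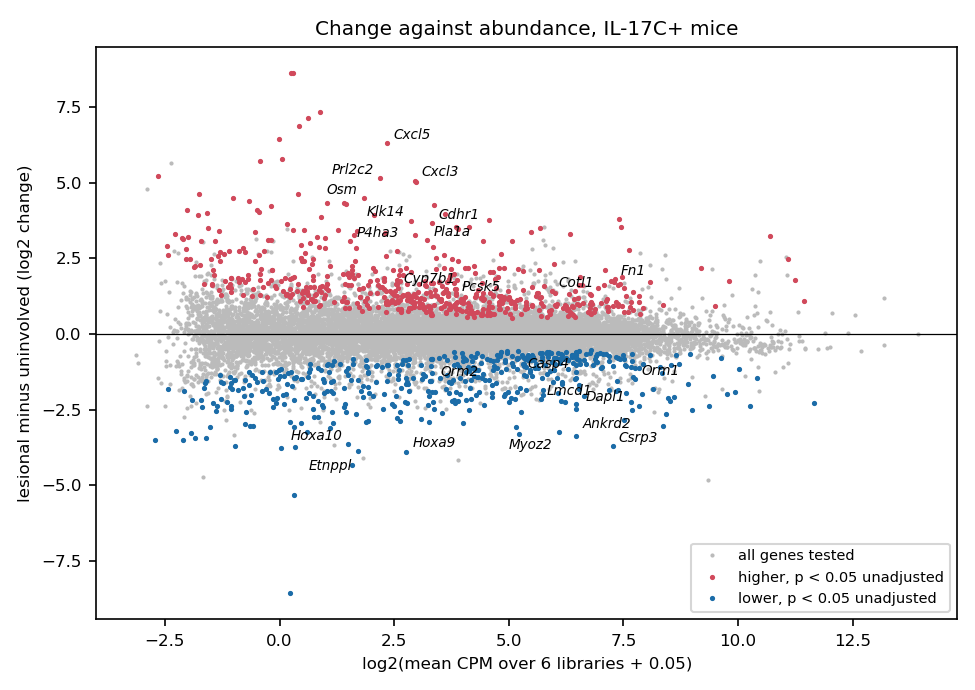
Fitted lesional minus uninvolved change (log2) of the 16083 genes tested against mean abundance (log2 of CPM + 0.05); red and blue points are the 569 higher and 462 lower genes with an unadjusted p under 0.05. The labelled genes are those named above, from Cxcl5 at 6.32 to Hoxa9 at -3.89.

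The transgene product Il17c (chr8:122422020-122423639, GRCm38) was read at 1416, 5396 and 15175 CPM in uninvolved and 10855, 12470 and 10596 CPM in lesional skin. Lesions thus lay within a narrow band, while uninvolved skin spanned it from below and above, and the groups overlapped. The lesional difference was 2.94, 1.21 and -0.52 log2 units in the 3 mice, with a fitted value of 1.21 ± 0.99 (SE, 3 mice) and an adjusted p of 0.84 by edgeR. Il6, an inducer of the acute phase response, was low throughout at 0.159, 0.296 and 0.371 CPM in uninvolved and 0.7, 2.71 and 0.783 CPM in lesional skin. The groups did not overlap, and the fitted difference was 2.11 ± 0.53 log2 units (SE, 3 mice; adjusted p 0.62, edgeR).

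The largest fitted difference of these 24 genes belonged to Cxcl5 (chr5:90759360-90761624), which encodes a CXCR2 ligand that attracts neutrophils. Its values were 0.0398, 0.148 and 0.0825 CPM in uninvolved and 3.15, 24.4 and 2.32 CPM in lesional skin, so the lowest lesion was far above the highest uninvolved sample. The uninvolved libraries held 6 Cxcl5 reads in all and the lesional ones 779, a 107-fold ratio after scaling with an exact 95% interval of 49.0 to 293 that covers counting error only. The fitted difference was 6.32 ± 0.55 log2 units (SE, 3 mice; adjusted p 0.12, edgeR), and it depends on the prior count at so few reads. Cxcl3, a neighbouring ligand of the same receptor, was at 0.0398, 1.04 and 0.0825 CPM in uninvolved and 2.76, 41.4 and 1.05 CPM in lesional skin. The lowest lesional value of Cxcl3 was only just above the highest uninvolved one, because mouse 2296 was higher than the others in both biopsies, and within each mouse the difference was 4.57, 5.22 and 2.81 log2 units. For Cxcl2 the values were 0.398, 3.8 and 0.536 CPM in uninvolved and 9.45, 126 and 1.05 CPM in lesional skin. Mouse 2237 contributed little to Cxcl2, with a difference of 0.88 against 4.32 and 5.03 log2 units, and the groups overlapped. Cxcl1 had mouse differences of 1.44, 1.36 and 1.07 log2 units, from 3.23, 9.02 and 2.43 CPM to 8.87, 23.2 and 5.21 CPM, and its groups overlapped as well. Csf3, the growth factor of neutrophil precursors, had 0.159, 0.444 and 0 CPM in uninvolved and 1.09, 6.51 and 0.12 CPM in lesional skin. Of the 9 neutrophil-attracting chemokines and growth factors tested, 6 were higher at an unadjusted p under 0.05 and 0 lower, and all 9 differences were positive, with a median of 3.45 log2 units against -0.02 over all genes. Without mouse 2296 the count was 4 and the median 2.81.

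Cxcl1, Cxcl2 and Cxcl3 lie on chromosome 5, and the window from 250 bases before to 50 after the start of each holds a pair of overlapping matches to the letters of the classical NF-kB element, GGGA and TTCC with 2 bases of any kind between them, searched on both strands. Il6 holds a single match. The sequences are shown because these are the neutrophil chemokines, and the cytokine of the knocked-out label, that have an entry in RefSeq's table (GRCm38.p6) with a match and were higher in every lesion than in the paired uninvolved skin. Capitals mark the match with the bases of an overlapping match on the other strand, and each run is 5′ to 3′ on the plus strand with 30 bases on either side.
Cxcl1 (chr5:90891144-90891214): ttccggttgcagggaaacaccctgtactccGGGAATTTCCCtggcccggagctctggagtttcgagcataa
Cxcl2 (chr5:90903772-90903842): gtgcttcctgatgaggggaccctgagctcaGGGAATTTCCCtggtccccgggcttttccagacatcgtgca
Cxcl3 (chr5:90785998-90786068): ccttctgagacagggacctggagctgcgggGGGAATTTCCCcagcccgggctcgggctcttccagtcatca
Il6 (chr5:30013040-30013109): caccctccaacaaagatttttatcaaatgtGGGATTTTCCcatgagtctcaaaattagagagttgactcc
The capitals begin 71, 97 and 73 bases before the start of Cxcl1, Cxcl2 and Cxcl3, and 44 bases before that of Il6, and the same 11 letters stand in all 3 chemokine windows. Over all 32851 promoter windows in the table, 482 (1.47%) hold a match. Among tested genes with a window, a match was found in 10 of 415 (2.41%) that were higher at an unadjusted p under 0.05, in 4 of 342 (1.17%) that were lower and in 201 of 12041 (1.67%) in all. A match describes letters and is not evidence of a bound site. The AP-1 letters TGANTCA were found in 7.23% of tested genes with a window, in 11.6% of the higher and in 13.5% of the lower ones. For the STAT letters TTCNNNGAA these shares were 8.55%, 8.43% and 9.65%. Cxcl5, Osm and Csf3 were not printed.

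Among cytokines, Osm (chr11:4236420-4241026), an IL-6 family member made by neutrophils, macrophages and T cells that acts on keratinocytes and fibroblasts, had the smallest p. It was at 0.0797, 0.542 and 0.124 CPM in uninvolved and 3.31, 16 and 0.993 CPM in lesional skin. No sample overlapped, and the fitted difference was 4.49 ± 0.54 log2 units (SE, 3 mice; adjusted p 0.31, edgeR). Il19, an IL-20 subfamily cytokine that keratinocytes make in psoriasis, was at 0.119, 0.592 and 0.165 CPM in uninvolved and 0.622, 11 and 1.66 CPM in lesional skin, again without overlap. Il33, an alarmin stored in the nuclei of keratinocytes and stromal cells, was at 39.3, 98.9 and 31.2 CPM in uninvolved and 88.7, 325 and 68 CPM in lesional skin. Every mouse had at least 1.12 log2 units more Il33 in its lesion, although the samples overlapped between mice. For Il1b the differences were 4.07 and 5.23 log2 units in mice 2275 and 2296 but 0.66 in mouse 2237. In the opposite direction, Tslp, an epithelial cytokine of type 2 inflammation, was at 2.51, 3.01 and 2.68 CPM in uninvolved and 0.778, 0.942 and 1.26 CPM in lesional skin. All lesions were below all uninvolved samples for Tslp, with a fitted difference of -1.47 ± 0.35 (SE, 3 mice). Il31ra, a subunit of the itch cytokine receptor, was lower by 4.89, 5.03 and 2.07 log2 units in the 3 mice and had only 7, 2 and 11 reads in the lesions. Il20rb, a receptor subunit for IL-19, was at 152, 174 and 146 CPM in uninvolved and 63.9, 85.2 and 101 CPM in lesional skin, without overlap. Over the 15 tested genes of the IL-17 axis the median was 0.18, with Il17b, another ligand of the family, higher by 1.80 ± 0.52 (SE, 3 mice).

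Markers of neutrophils followed the chemokines, but unevenly over the mice. Of 20 neutrophil surface and granule genes tested, 11 were higher at an unadjusted p under 0.05 and 0 lower, with a median of 2.14 log2 units. The list's median was 1.76 in mouse 2275, 3.88 in mouse 2296 and 0.14 in mouse 2237, and with the length trend removed it was 1.70, 3.72 and 0.69. Without mouse 2296, 6 were higher and 2 lower at that p, and the median was 1.43. Clec4d, a C-type lectin of neutrophils and monocytes, was at 0.438, 3.5 and 1.98 CPM in uninvolved and 10.5, 82.6 and 5.39 CPM in lesional skin, without overlap. Mmp8, neutrophil collagenase, went from 0.597, 1.04 and 0.619 CPM to 6.07, 36.4 and 1.26 CPM, and Trem1, an amplifying receptor of neutrophils, from 0.199, 0.74 and 0.413 CPM to 6.81, 52.5 and 0.722 CPM. Granule genes were not alike: Mmp8, itself a granule gene, had a fitted log2 difference of 3.26. Mpo (-0.24), Camp (-0.22) and Ltf (0.15), chosen after their values were seen, were near 0. S100a8 and S100a9, which neutrophils and stressed keratinocytes both make, had differences of 5.02, 2.29 and 0.07, and of 5.31, 2.41 and 0.06 log2 units. In bulk tissue, fewer or more cells of a type and less or more RNA per cell cannot be told apart.

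Among other infiltrating cells, mast cell and eosinophil genes had a median of 0.97 over 14 tested, all 14 positive, with 8 higher at an unadjusted p under 0.05, or 3 without mouse 2296. Kit, the stem cell factor receptor of mast cells and melanocytes, was at 16.7, 13.5 and 18.9 CPM in uninvolved and 37.2, 25.9 and 29.3 CPM in lesional skin. The mast cell tryptase Tpsb2 was at 36.6, 29.7 and 29.1 CPM and 67.6, 173 and 48.2 CPM, and neither gene overlapped between groups. Trem2, a lipid receptor of macrophages, was at 0.916, 1.28 and 3.01 CPM in uninvolved and 6.3, 6.44 and 7.07 CPM in lesional skin. The 24 macrophage and monocyte genes had a median of 0.52, and 2 were higher at that p, where 3.54% of all genes were. Their mouse medians were -0.09, 1.03 and 0.31, the median was 0.17 without mouse 2296, and 5 were higher without mouse 2237. The T cell genes Icos and Cd4 were higher by 1.47 ± 0.41 and 1.17 ± 0.40 log2 units (SE, 3 mice), but the 24 T and NK cell genes had a median of 0.05, or -0.33 without mouse 2237 and 0.41 without mouse 2275. Cd207, langerin of Langerhans cells, was lower, from 31.4, 11 and 16.8 CPM to 6.65, 2.79 and 11 CPM, and Itgax, the integrin CD11c of dendritic cells and macrophages, was higher, from 4.38, 2.32 and 2.15 CPM to 8.24, 4.08 and 12.97 CPM with overlap. They were the only ones of 17 dendritic and Langerhans cell genes at an unadjusted p under 0.05, and the list's median was -0.15, or -0.42 without mouse 2296. Selp and Sele, selectins on which leukocytes roll along activated vessels, were higher by 1.36 ± 0.28 and 1.33 ± 0.35 (SE, 3 mice) without overlap, and the 21 endothelial genes had a median of 0.42, or 0.08 without mouse 2237 and 0.64 without mouse 2275. Interferon response genes (median -0.13 over 25) and MHC presentation genes (-0.13 over 16) had 0 members past that p in either direction.

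Extracellular matrix genes were higher in lesions of all 3 mice. Fn1 (chr1:71585520-71653200), fibronectin of the provisional wound matrix, was at 101, 48.9 and 58.2 CPM in uninvolved and 380.0, 161 and 203 CPM in lesional skin. The lowest lesion stood above the highest uninvolved sample, and the 3 mice had 1.91, 1.72 and 1.80 log2 units, a fitted 1.81 ± 0.24 (SE, 3 mice; adjusted p 0.31, edgeR). Tnc, tenascin C, a glycoprotein of healing wounds and psoriatic lesions, was at 14.2, 35.4 and 25.6 CPM in uninvolved and 277, 578 and 124 CPM in lesional skin, also without overlap. P4ha3, a subunit of the prolyl hydroxylase that collagen needs to fold, was at 0.757, 0.592 and 0.413 CPM and then 7, 5.38 and 3.01 CPM, with 3.08, 3.02 and 2.65 log2 units in the mice. Of 19 collagen chains, 14 were higher at an unadjusted p under 0.05, where 3.54% of all genes were. Every lesion lay above all uninvolved samples for 15 (6.58% of all genes), and all 19 were positive, with a median of 1.52. Without mouse 2275, 3 passed that p and the median was 1.06. Col5a1, Col5a2 and Col5a3, the chains of the type V collagen that starts fibrils, had fitted differences of 2.11 ± 0.50, 1.89 ± 0.46 and 1.57 ± 0.34 (SE, 3 mice). Col1a1, the main chain of dermal collagen, was at 299.7, 486 and 306 CPM in uninvolved and 2669, 638 and 984 CPM in lesional skin. Mouse 2296 had the smallest Col1a1 difference, 0.39 log2 units against 3.15 and 1.68.

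Elastic fibre, lysyl oxidase and matrix glycoprotein genes were positive for all 26 tested, with 16 higher at that p and a median of 1.17, or 8 and 0.97 without mouse 2275. Loxl1, a lysyl oxidase that crosslinks elastin, was at 32.7, 30.1 and 18.9 CPM in uninvolved and 101, 54.2 and 58.8 CPM in lesional skin. Of 24 proteases and inhibitors of matrix remodelling, 15 were higher and 0 lower, with a median of 1.11; the count was 7 without mouse 2275 and 9 without mouse 2237, and both medians stayed above 1.1. Timp1, a metalloproteinase inhibitor, went from 3.66, 5.62 and 8.09 CPM to 20.1, 45 and 16.7 CPM, and Mmp9, gelatinase B, from 11.5, 8.68 and 6.15 CPM to 24.8, 76.6 and 23.9 CPM. Neither overlapped between groups. Fibroblast identity genes had a median of 0.50 over 21, or 0.13 without mouse 2296: Pdgfra, the receptor that marks dermal fibroblasts, was higher by 0.74, 0.81 and 0.79 log2 units, and Sfrp4, a secreted Wnt binding protein, was lower by 3.37, 2.54 and 1.72. Matrix transcripts are long (median 6119 bases for the collagens and 4395 for the elastic fibre list), and mouse 2237 was the animal whose uninvolved library was poor in long transcripts. With a length trend removed from each library, 11 collagens and 14 elastic fibre genes had an unadjusted p under 0.05, and the collagen medians per mouse went from 2.42, 0.96 and 1.13 to 2.39, 1.17 and 0.58 log2 units.

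In the epidermis, Klk14 (chr7:43690418-43695536), a kallikrein protease that loosens the contacts of cornified cells, had the smallest p. It was at 0.319, 1.53 and 0.949 CPM in uninvolved and 8.48, 26.8 and 5.42 CPM in lesional skin, without overlap, and the fitted difference was 3.75 ± 0.51 (SE, 3 mice; adjusted p 0.31, edgeR). Krt6a, a keratin of wounded and psoriatic epidermis, was at 238, 1436 and 524 CPM in uninvolved and 2684, 6239.9 and 1956 CPM in lesional skin. The related gene Krt6b was at 66.8, 796 and 268 CPM and then 1842, 5728 and 1236 CPM. Both were above the uninvolved range in every lesion, although uninvolved skin of mouse 2296 held far more of each than the other uninvolved samples. Stress and wound keratinocyte genes had a median of 1.20 over 19, with 6 higher and 0 lower at an unadjusted p under 0.05. The 22 basal and spinous keratinocyte genes had a median of 0.07, with 0 past that p, but the mice went opposite ways, with medians of 0.03, -0.58 and 0.76. Without mouse 2296 the median was 0.47 with 2 higher, and without mouse 2237 it was -0.29 with 2 lower. Krt5 differed by -0.13, -0.55 and 0.79 log2 units in the 3 mice, Krt10 by -0.31, -1.93 and 0.53, and Lor, loricrin of the cornified envelope, by -0.99, -2.35 and 0.92.

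The late cornified envelope genes split by cluster. All 14 Lce1 genes tested had a negative fitted difference, with a median of -1.02 and 11 lower at an unadjusted p under 0.05. All 6 Lce3 genes were positive, between 1.78 and 3.07, with 2 higher at that p. Groups did not overlap for 4 Lce1 and 0 Lce3 genes, and Lce1f and Lce1g were positive in mouse 2275 (0.18 and 0.05). Cornified envelope transcripts are short (median 738 bases for that list), and the part of length in this split was not tested. Lce1b was at 225, 343 and 357 CPM in uninvolved and 96.8, 129 and 217 CPM in lesional skin, and Lce3b at 0.319, 18.4 and 10.1 CPM and then 15.1, 130 and 28.7 CPM. The small proline-rich genes of the Sprr2 cluster lay with Lce3: all 10 were positive, with a median of 2.66 and 4 higher at that p. In uninvolved skin of mouse 2275, Lce3b was lower than elsewhere, as were S100a8 and the hair genes, so the Lce3 median of 4.61 in that mouse compares with 1.63 and 0.82 in the others. Members of these clusters are similar in sequence, and the labels do not say how reads shared by copies were counted, so values of single members are uncertain. Cell cycle genes were positive for 35 of 36 with a median of 0.56, but the median was -0.41 in mouse 2237. At that p 3 of them were higher, where 3.54% of all genes were. Without mouse 2237, 17 passed, and without mouse 2275 0 did.

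The remaining higher genes of the 12 have varied roles. Pla1a, a phospholipase that makes lysophosphatidylserine, was at 2.23, 1.63 and 1.24 CPM in uninvolved and 14.1, 29.2 and 7.07 CPM in lesional skin. Cdhr1, a cadherin known from photoreceptors, was at 0.199, 3.06 and 1.44 CPM and then 8.21, 39.2 and 7.89 CPM. Prl2c2, proliferin, a prolactin-related secreted factor, was at 0, 0.542 and 0.206 CPM and then 6.46, 17.1 and 2.65 CPM. All lesions lay above all uninvolved samples for each of these, and the 4 Prl2c genes tested, near-identical copies whose reads may be shared, had differences from 3.95 to 5.16 log2 units. Cotl1, an F-actin binding protein, was at 33.2, 34.7 and 30.7 CPM and then 77.9, 127 and 68.2 CPM, the tightest uninvolved range of the 12. Cyp7b1, an oxysterol hydroxylase, and Pcsk5, a proprotein convertase, were higher by 1.54 ± 0.28 and 1.28 ± 0.24 log2 units (SE, 3 mice).

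Muscle proteins led the lower genes. Csrp3 (chr7:48830398-48848033), a LIM protein of the muscle Z-disc, was at 359, 371 and 127 CPM in uninvolved and 17.5, 35 and 12.6 CPM in lesional skin. Every lesion was below every uninvolved sample by a wide margin, and the fitted difference was -3.69 ± 0.33 (SE, 3 mice; adjusted p 0.12, edgeR). Ankrd2, a stretch-responsive muscle protein, was at 176, 273 and 43.3 CPM and then 9.92, 22.4 and 8.28 CPM. Myoz2, a calcineurin-binding Z-disc protein of slow muscle, was at 163, 165 and 42.4 CPM and then 7.23, 25.3 and 6.83 CPM. These 3 were lower by at least 2.38 log2 units in each mouse, mouse 2237 included. The contractile genes were less even: Acta1, skeletal alpha-actin, differed by -3.33, -2.95 and -0.35, Xirp2, an actin-binding muscle protein, by -3.49, -4.29 and 0.86, and Myh4, the fastest myosin heavy chain, by -0.74, 0.54 and 2.99 log2 units. Of the 31 skeletal muscle genes, 11 were lower at an unadjusted p under 0.05, where 2.87% of all genes were. Every lesion lay below all uninvolved samples for 14 (8.18% of all genes). The median was -1.65, with -1.81 in mouse 2296, -0.22 in mouse 2237 and a lower value in mouse 2275. Without mouse 2275 or without mouse 2296, 3 passed that p, with medians of -0.70 and -1.56. The muscle sums given above describe how much muscle RNA each biopsy held, and the part of biopsy depth in these differences was not tested.

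Genes of mitochondrial respiration and of fat lay in the same direction. All 25 oxidative phosphorylation subunits were negative with a median of -0.57, 5 of them lower at an unadjusted p under 0.05, or 16 without mouse 2296 and 1 without either of the others. Cox7a1, Cox6a2 and Cox8b, the subunit forms of heart and skeletal muscle, had the largest differences of the list, -2.15 ± 0.61, -1.82 ± 0.67 and -1.94 ± 0.79 (SE, 3 mice), beside the muscle sums above. In mouse 2296 the list's median was 0.02, against -0.97 and -0.89 in the others, and its members are short (median 1661 bases). With the length trend removed, the mouse medians were -0.84, -0.15 and -0.25 and 2 subunits were lower at that p. Adipocyte genes were negative for 18 of 19 with a median of -0.68. Of them 0 passed that p, and 8 had every lesion below all uninvolved samples, as 8.18% of all genes did. Adipoq, adiponectin, was at 362, 241 and 311 CPM in uninvolved and 141, 171 and 163 CPM in lesional skin, and all lesions were below all uninvolved samples.

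Among the other lower genes, Casp4, the inflammatory caspase that senses intracellular lipopolysaccharide, was at 131, 138 and 103 CPM in uninvolved and 42.4, 68.8 and 47.4 CPM in lesional skin. Orm1 and Orm2, which encode the acute phase protein alpha-1-acid glycoprotein, were lower, while Saa3 was higher. Orm1 was at 216, 367 and 369 CPM and then 65.4, 138 and 147 CPM, and Saa3, serum amyloid A3, was at 1.51, 12.3 and 12.1 CPM and then 25.4, 942 and 21.1 CPM. Neither gene overlapped between groups, and the antimicrobial and acute phase list as a whole had a median of 1.69 over 20, with 6 higher and 1 lower, that one being Orm1. Without mouse 2296 the median of that list was 0.72 with 2 higher, and without mouse 2275 it was 1.01 with 3 higher. Dapl1, a protein of differentiating epithelium, was at 172, 81.7 and 158 CPM and then 58, 16.9 and 69.9 CPM. Lmcd1, a LIM protein of muscle, was lower by 2.15 ± 0.41 log2 units (SE, 3 mice), and Etnppl, which breaks down phosphoethanolamine, was lower by 4.27, 4.11 and 2.70 in the mice.

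Homeobox genes formed a further group, and they are known to keep a record of position along the body axis in skin fibroblasts. Hoxa9 (chr6:52223100-52231089) was at 8.92, 18.8 and 9.99 CPM in uninvolved and 0.506, 0.785 and 1.23 CPM in lesional skin, and Hoxa10 at 4.82, 5.87 and 4.66 CPM and then 0.194, 0.392 and 0.722 CPM. Both had groups far apart, with fitted differences of -3.89 ± 0.85 and -3.64 ± 0.76 (SE, 3 mice; adjusted p 0.62 for both, edgeR). Looking over the whole family after this was seen, 5 of the 8 tested genes of paralogue groups 9 to 13 were lower at an unadjusted p under 0.05 and all 5 by at least 1 log2 unit in each mouse: Hoxa9, Hoxa10, Hoxb9, Hoxc9 and Hoxc10. Hoxc10 had 156 reads in uninvolved and 4 in lesional skin, a 47.3-fold ratio with an exact 95% interval of 18.1 to 176 that covers counting error only. The median was -2.68 for groups 9 to 13, -0.67 for the 8 genes of groups 6 to 8 and -0.19 for the 14 genes of groups 1 to 5. In groups 1 to 5, 0 genes passed that p, while Hoxa6 and Hoxa7 of the middle groups did, at -3.05 ± 1.03 and -2.82 ± 0.65 (SE, 3 mice). Of the posterior genes, Hoxc13, which also acts in the hair follicle, was at 5.7, 16.7 and 37.9 CPM in uninvolved and 58.6, 16.4 and 49 CPM in lesional skin, and Hoxd9 and Hoxd10 differed by -0.24 and 0.01. The labels do not say where along the back each biopsy was taken, so position and lesion cannot be told apart in this comparison.

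**Figure D4:**
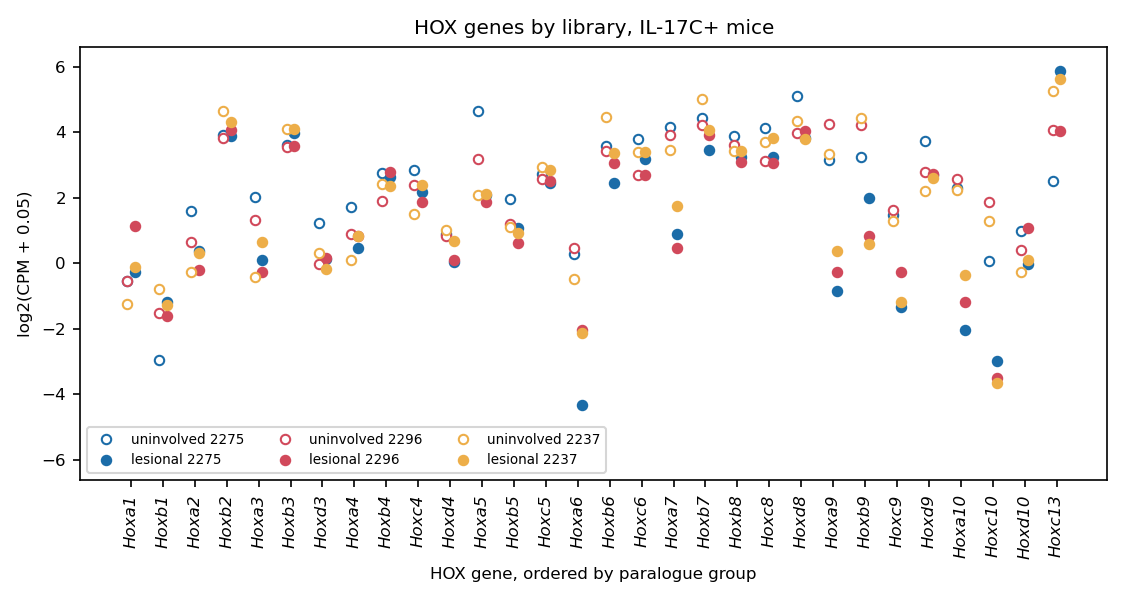
Abundance (log2 of CPM + 0.05) of the 30 tested HOX genes in the 6 IL-17C+ libraries, ordered by paralogue group; open points are uninvolved and filled points lesional skin, coloured by mouse. Hoxa7, Hoxa9, Hoxa10, Hoxb9, Hoxc9 and Hoxc10 have every lesional point below every uninvolved point, whereas the genes of the first groups overlap.

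The 3 mice gave different pictures of a lesion. Across the 16083 genes, the differences of mice 2275 and 2296 had a Pearson correlation of 0.37, those of 2275 and 2237 of 0.14, and those of 2296 and 2237 of -0.13, where genes are not independent replicates. With the length trend removed these Pearson values were 0.38, 0.18 and -0.03. The opposition of mice 2296 and 2237 was plainer by rank, with a Spearman correlation of -0.29 and 36.0% of genes of the same sign. In the pairs with mouse 2275, 56.5% (2296) and 59.3% (2237) had the same sign. At a mean of at least 10 CPM, mice 2296 and 2237 had a Pearson correlation of -0.31 and 30.7% of the same sign. With the length trend removed, their Spearman correlation over all genes tested was -0.20, with 40.1% of the same sign. The 5 genes with the largest increase within mouse 2275 were the hair genes Krt26, Krt33b, Krtap5-4 and Krt86 and the epithelial gene Crnn, each by at least 9.65 log2 units, and none of the 5 exceeded 0.69 in either other mouse. In mouse 2296 they were Saa3, Trem1, Retnlg, Il1b and Cxcl2, by 5.03 to 6.25 log2 units, all genes of neutrophilic inflammation. In mouse 2237 they were Eppk1, Myh4, Soga1, Kif26b and Fos, by 2.64 to 3.02, and among its 5 lowest were Csrp3, Myoz2 and Ankrd2, which were also low in the other lesions. Mlana, a melanocyte gene, differed by 2.50, 1.46 and -2.08 in the mice, and Krt77, a keratin of eccrine ducts and interfollicular epidermis, by -5.55, -7.28 and 0.06. The plot of list medians shows which groups held their sign in all 3 animals, among them the following: the neutrophil chemokines, collagens, elastic fibre genes, proteases, stress keratinocyte genes and mast cell genes were positive in each, and the muscle and adipocyte lists were negative in each. With the length trend removed, the muscle and adipocyte medians of mouse 2237 were 0.18 and 0.18, positive in place of -0.22 and -0.07.

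**Figure D5:**
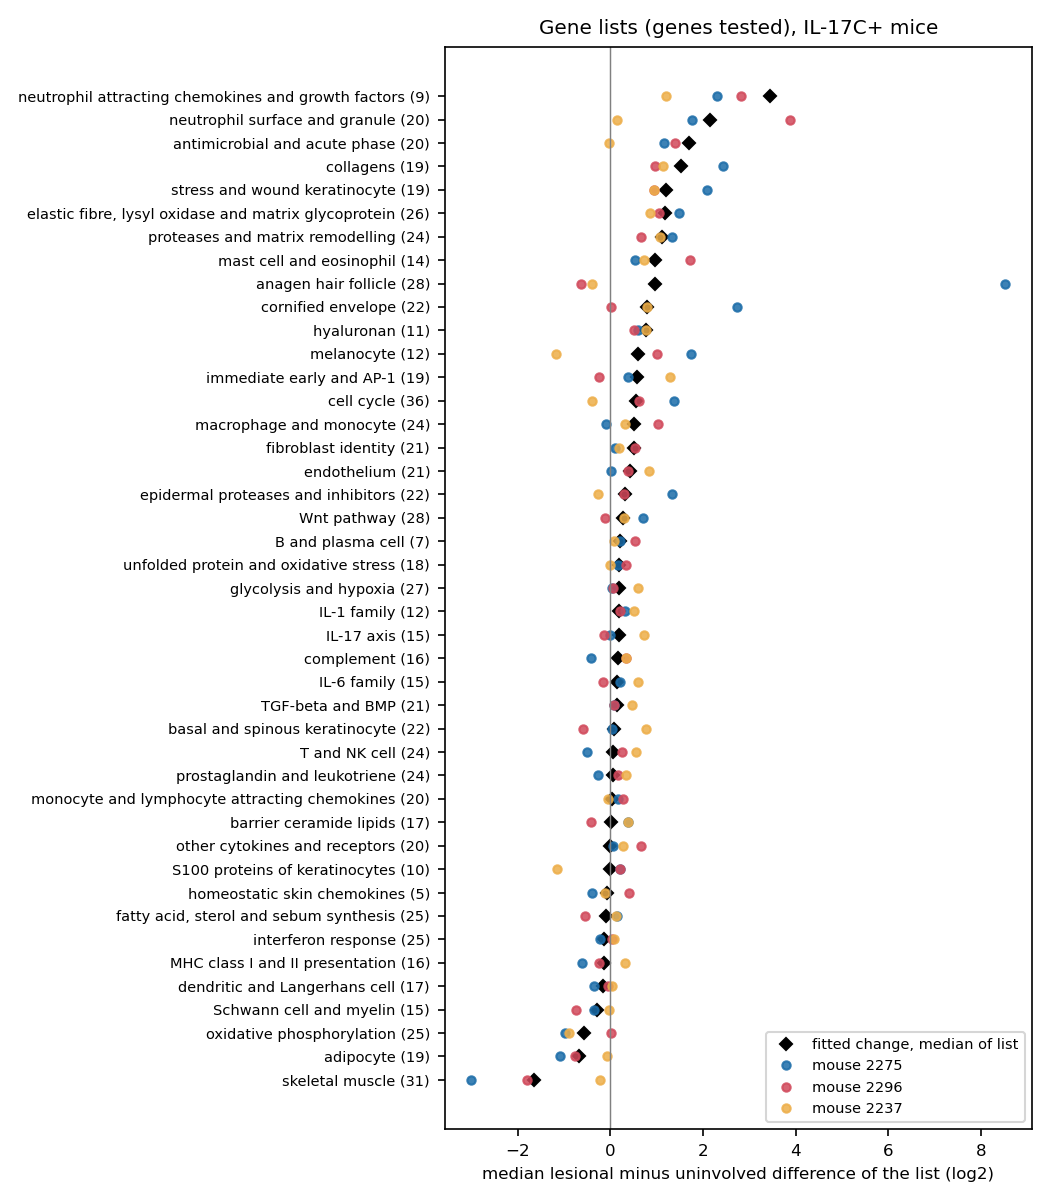
Median lesional minus uninvolved difference (log2) of each gene list with at least 5 genes tested (number in parentheses), HOX groups not drawn; coloured points are the 3 mice and black diamonds the median of the fitted changes. Of the lists drawn, neutrophil chemokines stand highest at 3.45 and skeletal muscle lowest at -1.65, and the hair follicle list is at 8.52 in mouse 2275 against -0.63 and -0.41 in the others.

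The 2 mice labelled IL-17C+KO, with uninvolved samples of their own, showed the same direction for the named genes. All 12 higher genes were higher in both of those mice, where 33.3% of all genes tested were, and all 12 lower genes were lower in both, where 34.5% were. Each of the 24 also had an unadjusted p under 0.05 there (6.16% of all genes were higher and 7.31% lower at that p), but they were chosen by p in a fit that shares its estimate of the spread with these mice, so that count is not independent of the choice. Of all genes, 2 had an adjusted p under 0.05 in those mice (0.0124%), Cxcl5 at 12.33 and Csrp3 at -6.02 log2 units. Of the 24 tests of whether the lesional difference itself differed between the labels, 7 had an unadjusted p under 0.05, where 1.17% of all genes did, and the smallest adjusted p was 1 by edgeR. The genes were selected by their differences in IL-17C+ mice, so the share for the difference between labels is a description too. Of the 230 genes that met the conditions for higher genes before the smallest p were taken, 214 (93.0%) were higher in both mice labelled IL-17C+KO, and of the 217 lower ones 195 (89.9%) were lower in both.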

How the data were processed

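RNA was sequenced from a lesional and an uninvolved biopsy of each mouse on an Illumina Genome Analyzer IIx. Per the submitters' processing notes, the tools were Cufflinks 2.2.1, HTSeq without a version, TopHat2 2.0.12 and cutadapt 1.6, and the build was mm10; for annotation, strand setting and shared reads nothing is stated. Per the file headers, the authors deposited counts beside FPKM for 24358 genes. The deposited counts are whole numbers of unequal totals and were used as raw counts; the deposited FPKM values, normalised for length and library size by the authors, served only as an alternative.

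Counts were fitted in R 4.3.3 with edgeR 4.0.16 (filterByExpr by the 4 groups, TMM, robust quasi-likelihood F test, Benjamini-Hochberg adjustment at 0.05) over all 10 libraries; mouse was a blocking term, and each label had its own lesional effect, leaving 3 residual degrees of freedom. Each p-value sets a fitted difference against how much the paired lesional difference varied between mice. That spread was estimated over all 5 mice, with information shared across genes. Depth in the 6 libraries ran from 21056850 to 31072491 counts. Standard errors come from the change and its F statistic and rest on the same spread. The 3 mice named beside them are the pairs that were compared. Within-mouse differences used log2 CPM and a prior count of 2. Alternatives were RLE scaling, no filter on low counts, DESeq2 1.42.0, limma 3.58.1 (voom, and trend on log2(FPKM + 0.1) and log2(FPKM + 1)), the 6 libraries alone, no block, leaving out each mouse and, chosen after seeing the data, removal of each library's trend on transcript length (longest GENCODE M21 transcript, 15512 of the tested genes). Gene coordinates are from GENCODE M21 (GRCm38).

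The labels and design text give the pairing, 2 biopsies from each animal; deviations from group means correlated at 0.034, -0.070 and -0.122 within mice 2275, 2296 and 2237, and at -0.081 to 0.131 between different mice. The members, the 44 gene lists and the rule for named genes were chosen with earlier results of these data known. That rule took Il17c and Il6, the 12 genes a direction described in the report, up to 4 members per list with the smallest p and a mean of at least 0.5 CPM, the 5 largest differences each way per mouse at a mean of at least 10 CPM, and tissue marker genes; some genes that it took are not reported here. HOX sets, gene families (Lce, Sprr2, Skint, Orm, Prl2c, Speer4) and, outside that rule, Cxcl1, S100a8, S100a9, Mpo, Camp and Ltf were chosen after their values were seen.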

Additional observations from a re-analysis of the deposited data

How the results depend on the processing

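At a false discovery rate of 0.05 the count of genes was 0 with edgeR and 247 with DESeq2 (155 higher, 92 lower), of which 217 had groups that did not overlap and all 247 an unadjusted p under 0.05 in edgeR. The other alternatives called 0. The number of genes at an unadjusted p under 0.05, 1031 with the mouse as a block, was 1597 without the replicate block. Leaving out 1 mouse gave 424 to 1636: 424 without mouse 2275, 1389 without 2296 and 1636 without 2237. The length correction gave 1125. The cause of these shifts was not tested. Of 124 named genes followed over 14 alternatives, 123 kept the sign of their difference in all and 55 moved by over 1.5 times under at least 1; the exception in sign was Myh4, at 0.88, with -0.10 without mouse 2237 and up to 1.79 without mouse 2275. Many of the 124 were chosen by a small p in the main fit, and every alternative reuses the same libraries. The kept signs are therefore a description and not independent support. DESeq2 brought 73 of the 124 past the threshold, and no other alternative did so for any. Of 658 list medians under the alternatives, 12 moved by more than the spread between mice, among them the neutrophil chemokines, 3.45 with counts, 1.92 on log2(FPKM + 0.1) and 1.001 on log2(FPKM + 1), scales that pull low genes towards 0. The HOX groups 9 to 13 likewise went from -2.68 to -2.33, and to -0.99 on log2(FPKM + 1), and fibroblast identity from 0.50 to 0.13 without mouse 2296. Depth limits the folds of genes with few reads in a group, such as Cxcl5 in uninvolved skin (6 reads).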

Other observations

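Apart from Il22ra2, the genes named here were chosen after their values were seen. The Skint family are immunoglobulin-like membrane proteins of keratinocytes, of which Skint1 is known for selecting the dendritic epidermal T cells of mouse skin. All 11 members tested had a negative fitted difference, with a median of -2.40 log2 units. The family's median was -2.80 in mouse 2275, -3.29 in mouse 2296 and -0.77 in mouse 2237. Members varied: Skint2 was at 0.51 in mouse 2275, and Skint3 and Skint6 were at -0.17 and -0.38 in mouse 2237. Of the 11 members, 9 were lower at an unadjusted p under 0.05, where 2.87% of all genes were. Skint11 was at 18, 18.3 and 21 CPM in uninvolved and 1.87, 1.81 and 8.79 CPM in lesional skin of mice 2275, 2296 and 2237, without overlap. Skint9 was lower by 3.99, 3.98 and 1.03 log2 units in the same mice. Il22ra2, the soluble receptor that binds IL-22, was at 103, 85.7 and 16.5 CPM in uninvolved and 4.59, 5.14 and 7.19 CPM in lesional skin, so its lesional values were close together and its uninvolved values were not.

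Irg1, the enzyme of itaconate synthesis in activated myeloid cells, was at 0.0398, 0.493 and 0.206 CPM in uninvolved and 4.78, 40.7 and 0.512 CPM in lesional skin. Nlrp3, an inflammasome sensor, was higher by 1.87, 4.96 and 1.31 log2 units. Fgf23, known as a bone hormone of phosphate balance, had 12 reads in uninvolved and 183 in lesional skin, a 12.6-fold ratio with an exact 95% interval of 7.03 to 24.8 for counting error. Each of the 3 mice had more in its lesion, by 1.97, 3.55 and 3.16 log2 units. Brinp3, a gene best known from neurons, had 1 read in uninvolved and 232 in lesional skin, with 149 of them in mouse 2275. The 3 Speer4 genes tested, similar copies described from testis whose reads may be shared, had 1 read each in uninvolved skin and 144, 199 and 274 in lesional skin, most of them in mouse 2296.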
